A study of Mus musculus with 14 samples.

Results

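Heat shock proteins and chaperones of the endoplasmic reticulum (ER) were followed across 7 groups of mouse macrophages on gene expression arrays. The members were all probes whose gene symbol in the platform annotation named an HSP70, HSP90, HSP40 (DNAJ), small heat shock or HSP60 and HSP10 protein, a protein disulfide isomerase of the Pdia series, calreticulin, calnexin, a CCT chaperonin subunit, or one of the stress genes Ddit3, Ddit4, Atf4, Atf6 and Xbp1. The rule took 72 of the 10012 probes on the array, for 69 genes, by their symbols. Atf6 had no probe under this rule. Canx, Cct4 and Dnajc1 had 2 probes each. Of the 72 probes, 70 passed a filter on low values and 69 were tested. Dnajc22 and Dnajc6 did not pass the filter. Cct8 was read on only 1 array of each group, so its values are given without a test. Of the 69 tested probes, 61 had no array at the floor of the measurement.

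Heat shock proteins are molecular chaperones. HSP70 proteins bind exposed hydrophobic stretches of unfolded proteins in cycles driven by ATP, DNAJ proteins deliver clients to them, and HSP90 finishes the folding of kinases and receptors. Transcription of the inducible forms is driven by heat shock factor 1 (HSF1), which binds heat shock elements in their promoters. In the ER, a separate set of chaperones, led by BiP (Hspa5), is controlled by the unfolded protein response through XBP1, ATF6 and ATF4. Macrophages meet both systems when Toll-like receptors start a large output of secreted cytokines.

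The cells were thioglycollate-elicited macrophages from female C57BL/6 mice aged 6 weeks, with 2 arrays in each group. One group was untreated. One group received LPS, a bacterial ligand of Toll-like receptor 4, and one received poly(I:C), a double-stranded RNA mimic that Toll-like receptor 3 recognises. In the remaining 4 groups the stimulus, LPS or poly(I:C), was combined with GW3965, a synthetic agonist of the liver X receptors (LXR), or with GW7845, a synthetic agonist of PPARγ. Neither agonist was given alone. The series title asks how these nuclear receptors repress Toll-like receptor responses, and its design text states biological replicates. Doses, times and the number of animals behind an array were not given by these sources, so p-values measure the spread between arrays, which may be partly technical.

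All levels are log2 intensities on which 0 is the median probe of the array, so a level of 1 is a signal 2 times that median. A level of -3.87 is the floor to which lower values were raised, and a change from the floor is a lower limit. Changes are differences of these levels, so +1 is a doubling. Levels of different probes cannot be set against each other, because probes bind with different strength. In RNA of a whole culture, a lower level can come from fewer cells of a type or from less RNA per cell, and the arrays cannot tell these apart. The arrays were split into 2 sets of 7 at the largest gap in their 10th percentile of intensity. Each set held 1 array of every group. That percentile was 0.137 to 0.271 in set A and 0.0549 to 0.0833 in set B. No label names the sets or says whether they differ for technical or biological reasons. Set A held the arrays numbered 1 in the titles and set B those numbered 2 in 6 of the 7 groups, and GW7845 with LPS had them the other way round. Pairs of values below give the set A array first and the set B array second. The limma fit without a block treats the difference between sets as spread between replicates, and the array-set fit has the set as a block. A member passed where its Benjamini-Hochberg adjusted p over all 9584 tested probes was under 0.05.

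The promoter sequences below are shown because they carry the motifs through which the 2 stress systems are read. The HSP70, HSP40 and HSP60 genes shown hold a heat shock element, and the ER chaperones shown hold an ER stress element. The sequences are the 250 bases before the annotated start, from RefSeq on build GRCm38.p6, read 5′ to 3′ on the strand of the gene. Capitals mark a heat shock element, GAANNTTC or TTCNNGAA, including overlapping matches, or an ER stress element, which is CCAAT, 9 bases and CCACG on either strand.
Hspa1a, chr17:34972157-34972406, minus strand: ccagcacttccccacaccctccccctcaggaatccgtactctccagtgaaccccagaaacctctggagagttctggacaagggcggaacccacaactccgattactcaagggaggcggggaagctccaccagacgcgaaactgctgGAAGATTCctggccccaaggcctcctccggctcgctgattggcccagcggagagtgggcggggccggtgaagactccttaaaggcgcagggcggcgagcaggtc
Hspa1b, chr17:34959239-34959488, minus strand: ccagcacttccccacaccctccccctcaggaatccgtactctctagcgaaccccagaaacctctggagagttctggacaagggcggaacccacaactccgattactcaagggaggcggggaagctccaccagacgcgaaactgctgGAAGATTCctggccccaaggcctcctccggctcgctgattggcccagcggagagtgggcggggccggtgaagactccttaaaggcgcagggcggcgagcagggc
Dnaja1, chr4:40722218-40722467, plus strand: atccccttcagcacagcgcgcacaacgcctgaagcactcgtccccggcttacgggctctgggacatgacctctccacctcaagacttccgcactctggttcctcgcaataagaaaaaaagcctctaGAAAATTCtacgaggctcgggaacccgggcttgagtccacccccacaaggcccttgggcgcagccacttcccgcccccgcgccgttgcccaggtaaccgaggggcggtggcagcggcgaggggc
Hspd1, chr1:55087933-55088182, minus strand: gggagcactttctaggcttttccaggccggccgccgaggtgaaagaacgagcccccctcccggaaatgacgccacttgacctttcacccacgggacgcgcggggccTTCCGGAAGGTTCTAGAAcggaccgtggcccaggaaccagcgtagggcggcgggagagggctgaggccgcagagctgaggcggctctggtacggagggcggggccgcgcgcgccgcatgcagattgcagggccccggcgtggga
Hspa5, chr2:34771840-34772089, plus strand: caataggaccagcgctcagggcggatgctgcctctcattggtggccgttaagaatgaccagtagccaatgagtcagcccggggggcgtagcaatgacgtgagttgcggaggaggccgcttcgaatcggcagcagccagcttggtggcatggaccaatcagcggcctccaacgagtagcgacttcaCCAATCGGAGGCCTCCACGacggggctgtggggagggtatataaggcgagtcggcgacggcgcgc
Hsp90b1, chr10:86705445-86705694, minus strand: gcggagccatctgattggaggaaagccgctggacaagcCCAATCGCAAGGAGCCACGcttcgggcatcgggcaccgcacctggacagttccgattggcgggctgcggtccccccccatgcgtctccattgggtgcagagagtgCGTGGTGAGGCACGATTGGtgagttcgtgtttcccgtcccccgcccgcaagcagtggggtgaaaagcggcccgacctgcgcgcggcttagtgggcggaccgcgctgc
The Hspa1a and Hspa1b windows were identical at 247 of 250 bases (98.8%). Each held a heat shock element whose first base lay 104 bases before the start, and that of Dnaja1 lay 124 bases before it. Hspd1 and Hspe1 are divergent neighbours whose starts lie 216 bases apart, so their windows shared 215 bases and the same run of heat shock elements.

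The promoter table held 74 promoters for 59 of the 69 member genes. A heat shock element of 2 units was found in 15 of these 74 promoters (20.3%), against 12.8% of all 32851 promoters. These belonged to 13 genes, Cct2, Cct5, Dnaja1, Dnaja4, Dnajb6, Dnajc10, Hspa1a, Hspa1b, Hspb1, Hspb3, Hspd1, Hspe1 and Hsph1. The stricter form of 3 alternating units was found in 4 of 74 member promoters (5.41%) and in 0.466% of all promoters. These 4 belonged to Dnajb6, Hspd1 and Hspe1, and the run that Hspd1 and Hspe1 share was counted for both. The ER stress element was found in 6 of 74 member promoters (8.11%), those of Calr, Canx, Dnajc3, Hsp90b1, Hspa5 and Pdia6, against 37 promoters (0.113%) of the whole table. Hsp90b1 held it at 212 and at 107 bases before the start, and Hspa5 at 65 bases. No member promoter held the ERSE-II element (0.0304% of all), the UPR element TGACGTGG (0.563%) or the cyclic AMP response element TGACGTCA (1.55%). A match describes the letters of the window and not binding of a factor.

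The labelled cell type and treatments were checked on genes outside the members. Marker intensities were summed by list, for comparison between arrays and not between lists. The 8 macrophage markers on the array summed to 1339 to 3028 times the array median, and 1 of them, Fcgr1, lay below the median on every array. Markers of B cells summed to 11.3 to 22.9, of T and NK cells to 2.30 to 5.83, of neutrophils to 1.22 to 8.80, of mast cells and eosinophils to 8.16 to 16.3, and of mesothelium or fibroblasts to 3.41 to 7.71. The neutrophil sum was 1.22 to 2.22 in the untreated group and 2.28 to 8.80 in the stimulated groups. Of its 6 genes, 5 lay below the array median throughout. Of its 5 tested probes, 1 passed as higher with each stimulus, and the median change was -0.05 with LPS and -0.54 with poly(I:C). The part of neutrophils in the results was not tested. Il6, Cxcl10, Tnf and Il1b rose by 7.44 to 11.49 with LPS or poly(I:C). The LXR targets Abca1, Abcg1, Scd2 and Eepd1 all passed with GW3965 over both stimuli, whereas the PPARγ targets Fabp4, Cd36 and Pdk4 did not pass with GW7845, so these targets give no check of the GW7845 groups.

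The first comparison asks which chaperones respond when macrophages meet LPS or poly(I:C). The stress-inducible HSP70 genes Hspa1a and Hspa1b rose 9.91- to 14.5-fold with either stimulus, the testis-type HSP40 gene Dnajb3 rose from near the floor with LPS, and no ER chaperone passed. With LPS, 3 of 69 tested members rose (all probes, 5.21%) and 0 fell (all probes, 2.6%) in the limma fit without a block, and 8 passed as higher (9.59%) and 1 as lower (8.18%) in the array-set fit. With poly(I:C), 2 members rose (6.08%) and 0 fell (2.78%), and the array-set fit called 11 higher (10.6%) and 1 lower (8.03%). The upward shares were near the background, and nothing particular to the members can be read from them. At an unadjusted p under 0.05 the limma fit without a block held 8 members with LPS (11.6%, against 17.5% of all probes) and 11 with poly(I:C) (15.9%, against 18.7%). The median member changed by +0.06 with LPS and +0.09 with poly(I:C), beside medians of +0.06 and +0.10 over all probes.

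**Figure D1:**
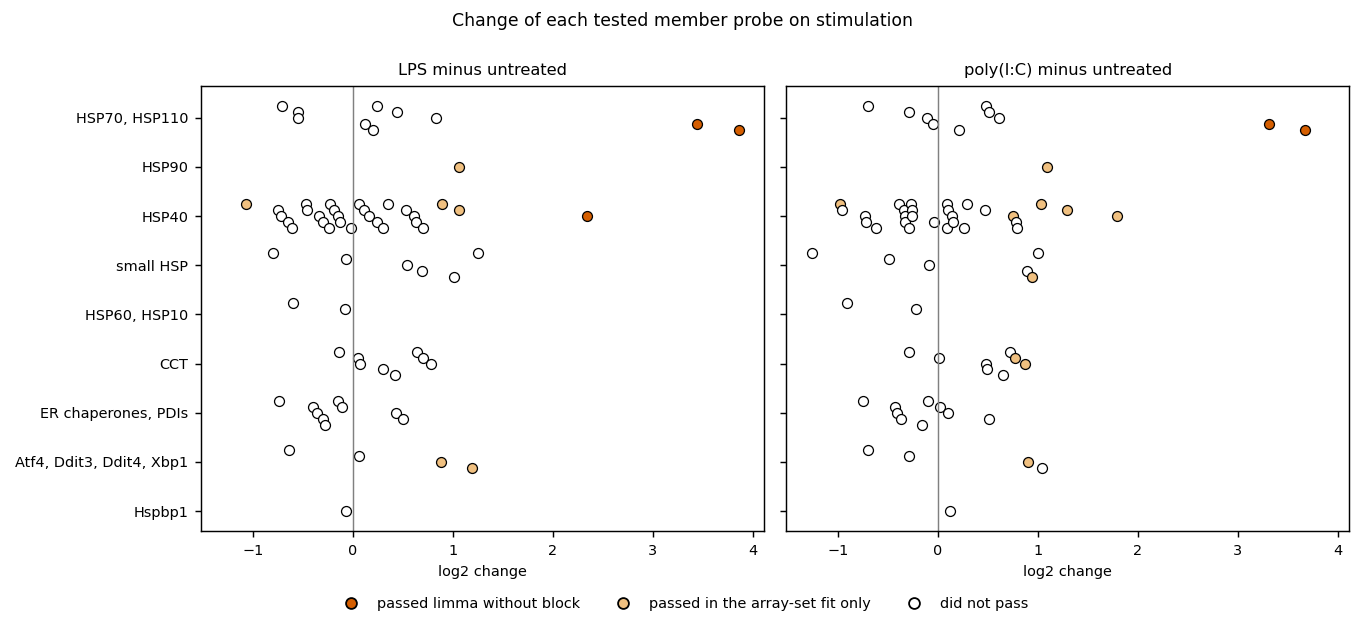
Log2 change (horizontal axis) of each of the 69 tested member probes, by family (rows), for LPS and for poly(I:C) against untreated cells. Each point is 1 probe, filled by the fit in which it passed. Hspa1a and Hspa1b lie at +3.31 to +3.86 in both panels, and the ER chaperones lie between -0.75 and +0.51.

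Each stimulated array was also set against the untreated array of its set, with no model. In 16 of 69 members (23.2%) every stimulated array lay above the untreated array of its set, in both sets, against 14.3% of all probes. These were Atf4, Cct2, Cct3, Cct4 (probe 5232), Cct7, Ddit4, Dnaja1, Dnaja2, Dnajb1, Dnajb3, Dnajc1 (probe 3641), Hsp90aa1, Hspa1a, Hspa1b, Hspa9 and Hspb9. The other probes of Cct4 and Dnajc1 were not among them. In 10 members (14.5%) every stimulated array lay below, against 15.1% of all probes, namely Ddit3, Dnajb14, Dnajb9, Dnajc12, Dnajc15, Dnajc4, Hsp90b1, Hspa2, Hspe1 and Pdia3. Some margins were close to nil. In set A, Hspa9 was at 3.76 untreated and 3.77 on the lowest stimulated array, and Dnajc15 at 1.98 and 1.96 on the highest. Cct2, Cct7, Dnajb1 and Hspa9 also separated 2 classes of set A arrays that are described later. So did Dnajb9, Dnajc15, Hsp90b1 and Hspe1 among the members that lay below. The difference between the shares of members and of all probes was not tested. The 2 stimulus comparisons share the untreated arrays, so they are not independent of each other.

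Hspa1a and Hspa1b encode the classical stress-inducible HSP70. Hspa1a was at 1.97 and 1.13 in untreated cells, at 5.56 and 5.25 with LPS and at 5.42 and 5.01 with poly(I:C). With LPS and an agonist it was at 5.52 and 4.73 (GW3965) and at 6.11 and 5.36 (GW7845), and with poly(I:C) and an agonist at 5.37 and 4.93 (GW3965) and at 4.76 and 5.33 (GW7845). All 12 stimulated arrays lay at 4.73 or above, well clear of both untreated arrays. Hspa1a rose by 3.86 with LPS (SE 0.43, 95% interval 2.94 to 4.77, 14.5-fold, limma adjusted p = 3.8e-05) and by 3.67 with poly(I:C) (SE 0.43, 12.7-fold, adjusted p = 5.8e-05). In set A the changes were 3.60 and 3.45, and in set B 4.12 and 3.88.

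Hspa1b was at 2.57 and 2.01 in untreated cells, at 5.95 and 5.51 with LPS and at 5.81 and 5.38 with poly(I:C). It was at 5.79 and 4.88 with GW3965 and LPS, at 6.42 and 5.57 with GW7845 and LPS, at 5.70 and 4.84 with GW3965 and poly(I:C), and at 5.34 and 5.59 with GW7845 and poly(I:C). Untreated and stimulated arrays again did not overlap. Hspa1b rose by 3.44 with LPS (SE 0.44, 10.9-fold, limma adjusted p = 0.00016) and by 3.31 with poly(I:C) (9.91-fold, adjusted p = 0.0002). The calls of both genes held when any 1 of the 4 arrays of a comparison was left out. The 2 genes are near-identical copies, so their probes may read each other's transcript and are not separate evidence. The counts above still hold them as 2 members, and they were the 2 that rose with poly(I:C) without a block.

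**Figure D2:**
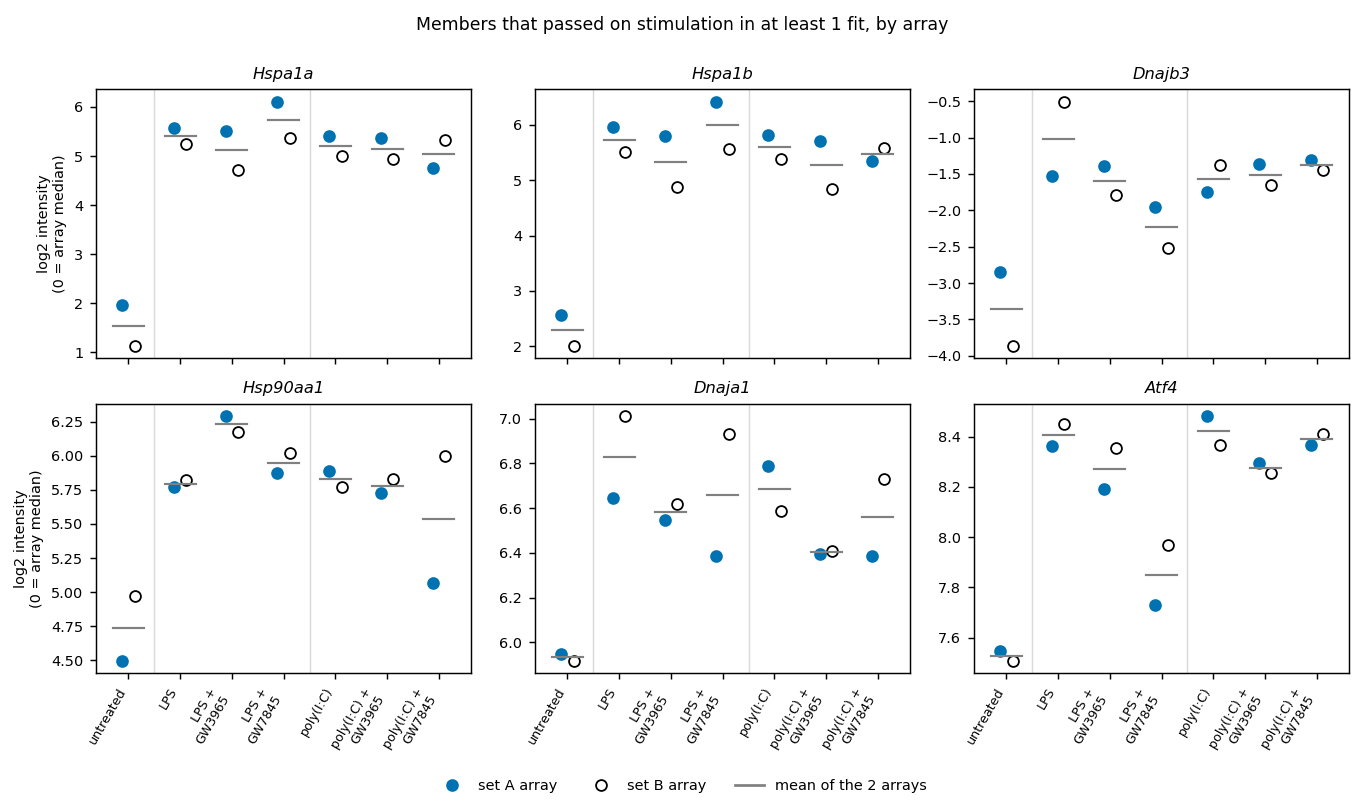
Log2 intensity (vertical axis, 0 is the array median) of 6 members in the 7 groups. Filled points are set A arrays, open points set B arrays and grey bars the mean of the 2 arrays. For Hspa1a, untreated arrays are at 1.97 and 1.13 and all stimulated arrays at 4.73 to 6.11.

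The other HSP70 and HSP110 members did not pass in either fit. Hspa8, the constitutive cytosolic HSP70, was at 7.73 and 7.88 in untreated cells, 7.91 and 8.59 with LPS and 8.10 and 8.54 with poly(I:C), a change of +0.44 (95% interval -0.57 to 1.45) and +0.51 (-0.50 to 1.52). Hspa9, the mitochondrial HSP70, changed by +0.21 and +0.48, and Hsph1, the HSP110 nucleotide exchange factor, by +0.12 and -0.05. Hspa1l, Hspa2, Hspa4, Hspa4l and Hspa14 changed by between -0.70 and +0.83 over both stimuli. The intervals leave room for a change of about 2-fold in most members, since their median half-width was 1.06.

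Hsp90aa1, the stress-inducible cytosolic HSP90, was at 4.50 and 4.97 in untreated cells, 5.77 and 5.82 with LPS, and 5.89 and 5.77 with poly(I:C). All 12 stimulated arrays lay between 5.07 and 6.29, above both untreated arrays. Its change was +1.06 with LPS (SE 0.36, limma adjusted p = 0.11) and +1.09 with poly(I:C) (adjusted p = 0.086), and it passed in the array-set fit only (adjusted p = 0.015 and 0.012).

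Among the 28 HSP40 probes, Dnajb3 alone passed in the limma fit without a block, and with LPS alone. Dnajb3, an HSP40 gene known mainly from testis, was at -2.85 and at the floor of -3.87 in untreated cells, at -1.53 and -0.50 with LPS and at -1.75 and -1.38 with poly(I:C). With an agonist it lay between -2.52 and -1.31, so all 12 stimulated arrays were above both untreated arrays and still below the array median. It rose by at least 2.34 with LPS (SE 0.59, limma adjusted p = 0.024), and this call ended without the second LPS array or without the second untreated array (adjusted p up to 0.28), and after quantile normalization (adjusted p = 0.061). With poly(I:C) the change was at least +1.79 (adjusted p = 0.085, and 0.015 in the array-set fit). Signal this low limits what Dnajb3 can show.

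Dnaja1, a farnesylated HSP40 that works with cytosolic HSP70, was at 5.95 and 5.92 in untreated cells, 6.64 and 7.01 with LPS, and 6.79 and 6.59 with poly(I:C). All stimulated arrays lay at 6.39 to 7.01, and the change was +0.89 with LPS and +0.75 with poly(I:C) (array-set adjusted p = 0.022 and 0.048, limma adjusted p = 0.16 and 0.25). Dnaja2, its close relative, was at 3.27 and 2.84, then 3.74 and 3.61 with LPS and 4.15 and 4.03 with poly(I:C). It passed only with poly(I:C) and only in the array-set fit (+1.03, adjusted p = 0.0065, limma adjusted p = 0.11), and with LPS its change was +0.62 (array-set adjusted p = 0.093). Whether these changes differ between stimuli is not settled by the direct comparison of poly(I:C) with LPS below, in which no member passed. There, in the fit without a block, Dnaja2 differed by +0.41 (SE 0.36) and Dnaja1 by -0.14 (SE 0.34). These errors are too wide to tell a difference from none, and hardly any probe on the array passed in that comparison.

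Dnajc1, an ER membrane HSP40, had 2 probes that disagreed. Its probe 3641 was at -0.76 and -0.45 in untreated cells, at 0.00 and 0.91 with LPS and at 0.46 and 0.90 with poly(I:C), and passed in the array-set fit (+1.06, adjusted p = 0.036, and +1.29, adjusted p = 0.012). Its probe 2236 changed by +0.16 and -0.33 and did not pass. Dnajc12 was the 1 member called lower in the limma fit without a block or the array-set fit. It was at 3.22 and 3.18 in untreated cells, 2.20 and 2.06 with LPS and 2.38 and 2.05 with poly(I:C), and all 12 stimulated arrays lay at 1.76 to 2.57, below both untreated arrays. Dnajc12, a cochaperone of aromatic amino acid hydroxylases, changed by -1.07 with LPS and -0.98 with poly(I:C) (array-set adjusted p = 0.0091 and 0.014, limma adjusted p = 0.10 and 0.13).

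The remaining HSP40 probes did not pass in either fit. Dnajb1, the HSF1 target usually paired with inducible HSP70, was at 1.73 and 1.62 in untreated cells, 1.90 and 2.15 with LPS, and 1.77 and 2.09 with poly(I:C). Its change was +0.35 (95% interval -0.31 to 1.01) and +0.26 (-0.40 to 0.92), although every stimulated array lay above both untreated ones. Dnajb9 and Dnajc3, ER-resident HSP40 proteins of the unfolded protein response, changed by -0.72 and -0.73, and by -0.18 and -0.33. Dnajb6 changed by +0.70 and +0.78 (array-set adjusted p = 0.10 and 0.065). Over all 28 probes the median change was -0.07 with LPS and +0.02 with poly(I:C).

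No tested chaperonin probe passed in the limma fit without a block. The CCT complex folds actin and tubulin, and 7 of its 8 tested probes had a change above 0 with LPS (median +0.36, none passed) and 7 of 8 with poly(I:C) (median +0.57). Over all probes, 53.6% and 55.6% had a change above 0. After quantile normalization it was 6 of 8 with LPS and 7 of 8 with poly(I:C), and after 75th percentile scaling 7 of 8 and 6 of 8. Cct3 was at 5.32 and 4.99 in untreated cells, 5.94 and 5.66 with LPS and 6.22 and 5.83 with poly(I:C), and its poly(I:C) change passed with the set as a block (+0.87, adjusted p = 0.032, limma adjusted p = 0.17). Cct4 at probe 5232 was at 6.53 and 6.44, then 7.02 and 6.80, then 7.55 and 6.97, and passed likewise (+0.77, adjusted p = 0.033, limma adjusted p = 0.31), while its probe 1945 changed by +0.02. Cct2 had the largest CCT change with LPS, +0.78, and did not pass (array-set adjusted p = 0.15). Cct8, read only in set B, was at 4.30 untreated, 4.82 with LPS, 5.08 with poly(I:C), and 4.81 to 5.12 with an agonist. Quantile normalization between arrays lowered the median change of all probes by 0.14 with LPS and by 0.17 with poly(I:C), and after it the CCT medians were +0.14 and +0.22.

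Hspd1 and Hspe1, the mitochondrial HSP60 and its HSP10 lid, changed by -0.07 and -0.59 with LPS and by -0.22 and -0.91 with poly(I:C), and neither passed. Hspe1 was at 6.53 and 4.36 in untreated cells, 5.79 and 3.91 with LPS, and 5.53 and 3.54 with poly(I:C), below the untreated array of its set throughout (array-set adjusted p = 0.28 and 0.084). The promoter region they share, shown above, holds 3-unit heat shock elements.

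Among 6 small heat shock proteins, Hspb9 was at 1.97 and 1.43 in untreated cells, 2.20 and 2.28 with LPS and 2.84 and 2.44 with poly(I:C). Its poly(I:C) change passed with the set as a block only (+0.94, adjusted p = 0.034, limma adjusted p = 0.13). Hspb1, the HSP27 gene and a known HSF1 target, changed by -0.06 and -0.49 and did not pass. Hspb2, Hspb3, Hspb7 and Hspb8 lay below the array median on every array and did not pass, with the largest changes in Hspb2 with LPS (+1.25) and Hspb7 with poly(I:C) (-1.26). Hspbp1, which releases nucleotide from HSP70, changed by -0.07 and +0.12.

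No ER chaperone passed with either stimulus in either fit. Of their 9 probes, 2 had a change above 0 with LPS (median -0.27) and 3 with poly(I:C) (median -0.15). Hspa5 was at 0.80 and 2.01 in untreated cells, 0.60 and 2.00 with LPS, and 1.19 and 1.82 with poly(I:C), a change of -0.10 (95% interval -1.19 to 0.98) and +0.10 (-0.98 to 1.19). Its 2 arrays differed more than its groups did. Hsp90b1, the ER form of HSP90 (GRP94), was at 7.71 and 6.91, then 7.37 and 6.53, then 7.45 and 6.35. Every stimulated array lay below the untreated array of its set, but Hsp90b1 also separated the 2 classes of set A arrays described later. Its change was -0.36 (array-set 95% interval -0.86 to 0.14) and -0.41 (-0.91 to 0.09).

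Pdia3 (ERp57), which forms disulfides in glycoproteins and in MHC class I loading, was at 7.33 and 7.62 in untreated cells, 7.03 and 7.33 with LPS, and 6.32 and 7.14 with poly(I:C). Its change with poly(I:C), -0.75, was closest to passing in this family (array-set adjusted p = 0.061). Pdia4 changed by -0.73 with LPS (array-set adjusted p = 0.15) and -0.15 with poly(I:C), and Pdia6 by +0.50 and +0.02. Calreticulin (Calr) changed by -0.40 and -0.43. The 2 probes of calnexin (Canx) differed in sign, at -0.27 and +0.43 with LPS and at -0.37 and +0.51 with poly(I:C).

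**Figure D3:**
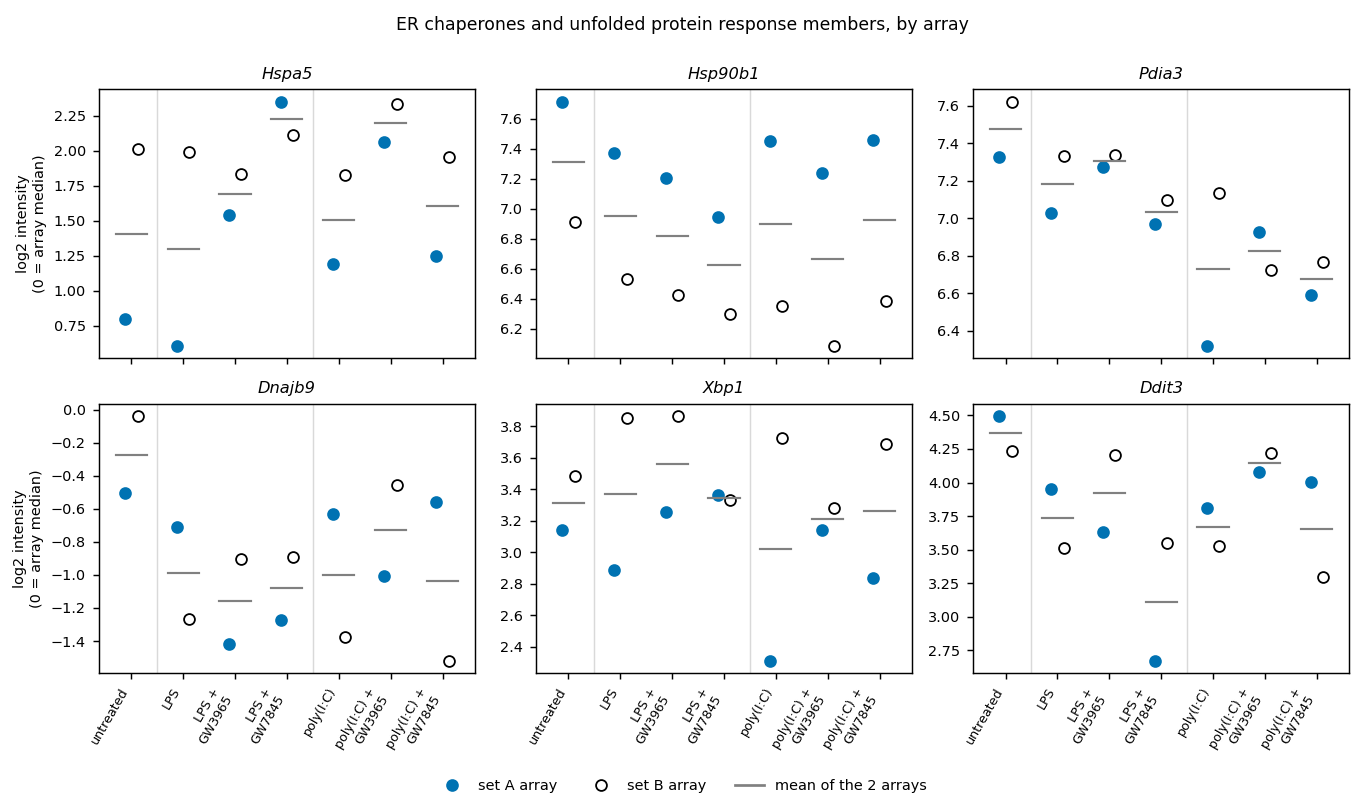
Log2 intensity (vertical axis, 0 is the array median) of 6 members of the ER stress response in the 7 groups. Filled points are set A arrays, open points set B arrays and grey bars the mean of the 2 arrays. Untreated and stimulated points overlap for Hspa5 and Xbp1, and Ddit3 is at 4.49 and 4.24 untreated against at most 4.22 stimulated.

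The stress regulators did not move as a group. Atf4, the transcription factor of the integrated stress response, was at 7.55 and 7.51 in untreated cells, 8.36 and 8.45 with LPS, and 8.48 and 8.37 with poly(I:C). It passed in the array-set fit (+0.88, adjusted p = 0.016, and +0.90, adjusted p = 0.013), with limma adjusted p = 0.17 and 0.15. Ddit3 (CHOP), a pro-apoptotic target of ATF4, was at 4.49 and 4.24, then 3.95 and 3.51, then 3.81 and 3.53. All 12 stimulated Ddit3 arrays lay at 2.67 to 4.22, below both untreated arrays, with changes of -0.63 and -0.70 that did not pass (array-set adjusted p = 0.25 and 0.19). Ddit4 (REDD1), an inhibitor of mTORC1, was at -0.41 and -2.05, then 0.09 and -0.17, then 0.45 and -0.83, and passed with LPS in the array-set fit only (+1.19, adjusted p = 0.038, limma adjusted p = 0.48). Xbp1 was at 3.14 and 3.48 in untreated cells and changed by +0.06 and -0.29. The probe cannot tell spliced from unspliced Xbp1 RNA, since its position on the transcript is unknown here.

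The calls of the array-set fit alone rested on few arrays. With LPS, those of Atf4, Dnaja1 and Dnajc1 ended on removal of any single array of the 4 (adjusted p up to 0.12, 0.19 and 0.26), that of Ddit4 without LPS 2 or either untreated array (up to 0.42), that of Hsp90aa1 without either LPS array or untreated 1 (up to 0.14), and that of Dnajc12 without LPS 1 or untreated 2 (up to 0.11). With poly(I:C), those of Atf4, Cct3, Cct4 and Dnaja1 ended without any 1 of the 4 arrays (up to 0.13, 0.24, 0.24 and 0.37). Those of Dnajc1, Dnajc12 and Hspb9 ended without untreated 2 or either poly(I:C) array (up to 0.098, 0.13 and 0.26). That of Hsp90aa1 ended without untreated 1 or poly(I:C) 1 (0.14), that of Dnaja2 without poly(I:C) 2 (0.094), and that of Dnajb3 without untreated 2 or poly(I:C) 2 (0.17). Leaving out 1 array moved the LPS change of Ddit4 to between +0.67 (without LPS 2) and +1.71 (without LPS 1).

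Quantile normalization before the array-set fit ended 9 of these calls. With LPS, the change of Atf4 became +0.58 (adjusted p = 0.091), of Ddit4 +0.98 (0.080), of Dnaja1 +0.58 (0.090) and of Hsp90aa1 +0.78 (0.069). With poly(I:C), the change of Atf4 became +0.43 (0.22), of Cct3 +0.49 (0.15), of Cct4 +0.22 (0.67), of Dnaja1 +0.33 (0.37) and of Hsp90aa1 +0.69 (0.10).

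Other genes of the same pathways were read from 2 lists that are not members. Of 23 HSP70 and HSP90 cochaperones and heat shock factors, none passed in the limma fit without a block. In the array-set fit 2 were higher and 2 lower with LPS, and 3 higher and 1 lower with poly(I:C). Over all probes the same fit called 9.59% higher and 8.18% lower with LPS, and 10.6% and 8.03% with poly(I:C), so these counts are near the background. Stip1, which links HSP70 to HSP90, changed by +1.30 and +1.13, the HSP90 cochaperone Ptges3 (p23) by +1.09 and +1.31, and Bag4 by -1.23 and -1.26. Fkbp4 was lower with LPS (-0.94), and Vbp1, a prefoldin subunit, higher with poly(I:C) (+0.98).

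Of 37 unfolded protein response, ER folding and degradation genes, 2 rose and 1 fell with LPS, and 3 rose and 2 fell with poly(I:C). All probes were called at 5.21% higher and 2.6% lower, and at 6.08% and 2.78%, so these counts too are near the background. Asns, asparagine synthetase and a target of ATF4, rose by 1.61 (limma adjusted p = 0.026) and 2.34 (0.0019), and Cebpb rose by 1.93 (0.0055) and 2.17 (0.0021). Ppp1r15a (GADD34), which restores translation after eIF2α phosphorylation, rose by 2.54 with poly(I:C) (0.0061). Erp29, an ER luminal folding factor, fell by 1.83 (0.014) and 2.14 (0.0043), and Eif2ak3 (PERK), the ER kinase upstream of ATF4, fell by 1.95 with poly(I:C) (0.036). With the set as a block, 4 were called higher and 3 lower with LPS (all probes, 9.59% and 8.18%). With poly(I:C) it was 4 higher and 6 lower (all probes, 10.6% and 8.03%). The lower count with poly(I:C) lay above the share of all probes, a difference that was not tested.

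Poly(I:C) was also compared with LPS directly. Between them 0 of 69 members passed in either fit (all probes, 0.0104% and 0.0209%), 0 members had an unadjusted p under 0.05 in either fit, and the changes ran from -0.79 to +0.62. Hspa1a differed by -0.19 (95% interval -1.11 to 0.72) and Hspa1b by -0.14 (-1.09 to 0.82), so differences of up to about 2-fold are within the error.

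The second question is whether an agonist changes the chaperones of stimulated cells. No member passed in any agonist comparison in either fit, over comparisons in which few probes did. The share of all probes called was 0.0313% without a block and 0.407% in the array-set fit for GW3965 with LPS, 0.0104% and 0.073% for GW3965 with poly(I:C), and 0 in both fits for GW7845 with LPS and for GW7845 with poly(I:C). Over both stimuli it was 0.198% and 1.15% for GW3965, and 0 and 0.0104% for GW7845. At an unadjusted p under 0.05, the fit without a block held 0 members in each of these comparisons. The array-set fit held 3 for GW3965 with LPS (4.35%, against 9.76% of all probes), 5 for GW7845 with LPS (7.25%, against 5.94%), 0 for GW3965 with poly(I:C) and 1 for GW7845 with poly(I:C) (1.45%, against 3.78%).

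The induced HSP70 genes did not pass with either agonist. With LPS, Hspa1a differed by -0.28 with GW3965 (95% interval -1.20 to 0.63) and by +0.33 with GW7845 (-0.58 to 1.24). With poly(I:C) it differed by -0.06 (-0.98 to 0.85) and -0.17 (-1.09 to 0.74). Hspa1b differed by -0.40 and +0.26 with LPS and by -0.32 and -0.13 with poly(I:C). With 2 arrays a group, the data leave room for any change inside these intervals.

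The GW3965 comparison gave its smallest adjusted p among the members to Hspbp1. With LPS it was at 4.95 and 3.89, with GW3965 added at 3.84 and 3.18, and over both stimuli it differed by -0.70 (array-set 95% interval -1.11 to -0.29, adjusted p = 0.12), by -0.97 in set A and -0.43 in set B. With GW7845 and LPS, Atf4 was at 7.73 and 7.97, between the LPS arrays at 8.36 and 8.45 and the untreated arrays, a difference of -0.56 (array-set 95% interval -1.05 to -0.06, adjusted p = 0.81). Dnajb3 differed by -1.22 in the same comparison (adjusted p = 0.81). None of these passed.

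GW3965 and GW7845, ligands of different receptors, were also set against each other under each stimulus, which makes 2 pairs. Under LPS, 0 members passed in either fit (all probes, 0.0104% and 0.0626%), and under poly(I:C) 0 passed (0.0417% and 0.104%). At an unadjusted p under 0.05 the array-set fit held 4 members under LPS (5.80%, against 5.94% of all probes) and 5 under poly(I:C) (7.25%, against 7.94%). Under LPS, Hspa1b was higher with GW7845 than with GW3965 by 0.66 (array-set 95% interval 0.05 to 1.27, adjusted p = 0.83), and Ddit3 differed by -0.81 (-1.54 to -0.08, adjusted p = 0.83). The difference of each agonist's effect between stimuli was tested as an interaction, and 0 members and 0 probes passed for GW3965 or GW7845 in either fit, with a median half-width of the member intervals of 1.03 in the array-set fit.

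**Figure D4:**
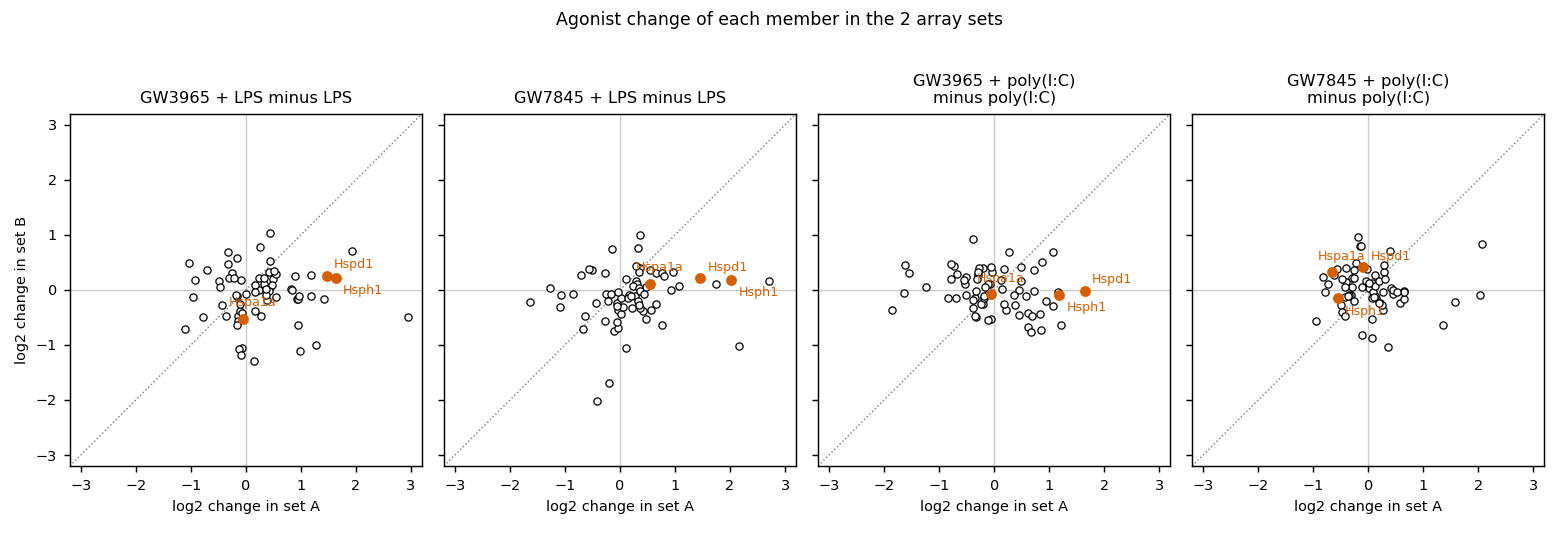
Log2 change on adding an agonist in set A (horizontal axis) and in set B (vertical axis), 1 point per member probe, for the 4 agonist comparisons. The dotted line marks equal changes. Hspd1 with GW3965 and LPS is at 1.47 in set A and 0.26 in set B, and points spread further along the set A axis in the first 3 panels.

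Agonist changes were larger in set A than in set B. The median size of a member's change was 0.41 in set A and 0.26 in set B for GW3965 with LPS, 0.36 and 0.28 for GW7845 with LPS, 0.45 and 0.28 for GW3965 with poly(I:C), and 0.31 and 0.21 for GW7845 with poly(I:C). Over all probes the same values were 0.56 and 0.29, 0.48 and 0.26, 0.51 and 0.28, and 0.34 and 0.27. Hspd1 with GW3965 changed by +1.47 in set A and +0.26 in set B under LPS, and by +1.64 and -0.01 under poly(I:C). Hsph1 changed by +1.64 and +0.22 with GW3965 and LPS, and by +2.02 and +0.19 with GW7845 and LPS.

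The set A arrays also differed in mean intensity. Divided by the set B array of the same group, the mean intensity of the set A arrays was 1.39 to 1.66 for untreated, LPS, poly(I:C) and GW7845 with poly(I:C), and 1.12 to 1.15 for GW3965 with LPS, GW7845 with LPS and GW3965 with poly(I:C). The split into these 4 and 3 arrays was made after the data were seen. In set A, the 3 arrays with the lower ratio all came from agonist groups and the 3 arrays without an agonist all had the higher ratio, so agonist and array class cannot be told apart there, save for the GW7845 with poly(I:C) array.

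Hspd1 was at 2.74 to 3.19 on the 4 set A arrays with the higher ratio, at 4.47 to 4.66 on the 3 with the lower ratio, and at 4.32 to 4.79 on all 7 set B arrays. The difference between the classes in set A was 1.65, and the same groups in set B differed by -0.04. Hsph1 lay at -1.40 to -0.78 on the higher-ratio arrays and at 0.34 to 1.24 on the lower-ratio arrays, a difference of 1.83, against 0.19 in set B. Hspa9 differed by 1.18 (0.15 in set B), Cct2 by 1.19 (0.22), Hspa5 by 1.03 (0.15) and Dnajc10, an ER disulfide reductase, by 0.95 (-0.17). Hspe1 ran the other way, with 5.53 to 6.53 on the higher-ratio arrays and 4.76 to 5.08 on the lower-ratio arrays, a difference of -1.05 (-0.02 in set B). Hspbp1 differed by -0.86 (-0.26), Dnajc15 by -1.08 (-0.19) and Dnajc19 by -0.84 (0.10).

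The classes did not overlap for 12 members that were higher on the lower-ratio arrays (17.4% of 69, against 7.8% of all probes) and for 9 that were lower (13.0%, against 13.3%). Hspd1 and Hspe1, whose proteins form 1 complex and whose promoters share a region, differed in opposite directions between these arrays. Hspa1a, Hspa1b, Hsp90aa1 and Atf4 did not separate the classes. What distinguishes the classes was not tested.

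**Figure D5:**
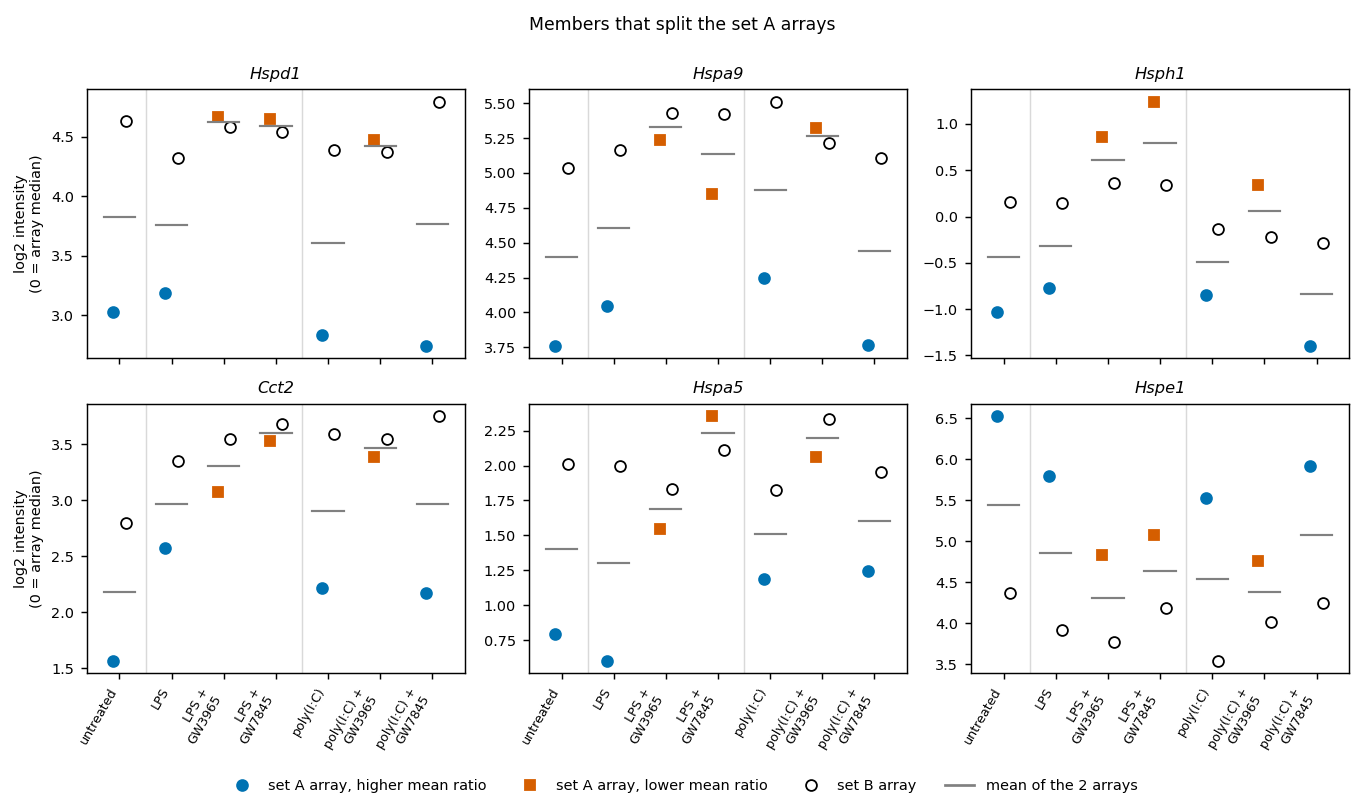
Log2 intensity (vertical axis, 0 is the array median) of 6 members in the 7 groups. Blue circles are the 4 set A arrays whose mean intensity was 1.39 to 1.66 times that of the set B array of the group, orange squares the 3 set A arrays at 1.12 to 1.15 times, open circles set B arrays and grey bars the mean of the 2 arrays. Hspd1 is at 2.74 to 3.19 on the blue arrays and at 4.32 to 4.79 on all open and orange ones.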

How the data were processed

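RNA of 14 macrophage cultures was read on 1-colour arrays after labelling of 0.5 µg total RNA with biotin, per the labels' protocols. The deposited table holds 1 linear intensity per probe and array, already scaled as deposited, so that each array's median was 1. Scanner software and background method are not stated by these sources. Values at or below 0 made up at most 0.421% of any array, and the number of arrays limits the precision. Values were floored at the 5th percentile of positive values (intensity 0.0686), log2 was taken, and probes above the 20th percentile of their array on at least 2 of 14 arrays were tested (9584). Group means were fitted to all arrays in limma 3.58.1 (R 4.3.3) with an intensity trend, two-sided, with Benjamini-Hochberg adjustment. The fit had 7 residual degrees of freedom, or 6 with the array set as a block. The script was tested on simulated data. Only probes with 1 platform symbol (8983) were named, and all 72 member symbols were current in RefSeq. Named were members called in either fit, central genes of each family and the largest change of each family. Genes of the pathway lists were named only where called, at most 6 a list by size of change. The members and lists were chosen with earlier results of these data known.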

Additional observations from a re-analysis of the deposited data

How the results depend on the processing

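For LPS, 3 members passed, and 15 (12 higher, 3 lower) passed with the array class as a block, a split chosen after seeing the data, where 25.8% of all probes did. The array set as a block gave 9. For poly(I:C), 2 members passed, and 18 (14 higher, 4 lower) with the array class as a block (26.8% of all probes), and 12 with the array set as a block. The replicate block, with the number in the titles, gave 3 members for LPS and 4 for poly(I:C), and it changed no other count. Deviations of same-numbered arrays correlated at 0.35 to 0.67 in 15 pairs of groups and at -0.54 to -0.39 in the 6 pairs with GW7845 and LPS, whose numbers run opposite to the array sets, so the numbers were not taken as a pairing. Leaving out 1 array gave 2 to 3 members for LPS and 2 for poly(I:C) without a block, and 3 to 9 and 4 to 11 in the array-set fit. The other 11 comparisons gave 0 members under every setting run. After quantile normalization the array-set fit gave 6 members for LPS (4 higher, 2 lower) and 11 for poly(I:C) (6 higher, 5 lower). Dnajc12 was thus not the only member called lower under that setting. The share of all probes called there is not given here, so these counts have no background beside them. No named member that passed turned its direction under any setting. With 2 arrays a group and median interval half-widths of 1.06 (0.73 in the array-set fit), changes under about 2-fold were mostly not detectable. These intervals are not adjusted for the number of probes, and some changes above 2-fold did not pass either. With LPS, Hsp90aa1 (+1.06, limma adjusted p = 0.11) and Dnajc12 (-1.07, 0.10) were among them. Members near the floor have the least signal over background.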
